A study of Mus musculus with 4 samples.

Results

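The genes described here encode the canonical NF-κB subunits, the IκB inhibitors, the IκB kinase complex and the feedback regulators of the same pathway. They were chosen by name and role, as a list of 10 genes: Nfkb1, Rela, Nfkbia, Nfkbib, Nfkbie, Tnfaip3, Tnip1, Ikbkb, Ikbkg and Bcl3. The list was made with earlier results of these data known, so counts among its genes are not independent support. Of these, 9 were among the 12208 genes of the deposited table, and all 9 were among the 12160 genes tested. Bcl3, which encodes a nuclear IκB protein, was not listed there and is not analysed here. RNA was sequenced from 3T3 cells, labelled as a pre-osteoblast mouse line, given recombinant LTα1β2 or a control treatment, each for 24 h and for 48 h. This made 4 groups, treated and control at either time, of 1 library each. All 4 came from the same cell line, and what the control treatment contained is not given in the sources used here.

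NF-κB is a family of dimeric transcription factors, of which the dimer of p50, made from the Nfkb1 product, and RelA, made from Rela, is the best known. In resting cells IκB proteins hold these dimers in the cytoplasm. A receptor signal activates the IκB kinase, which marks IκB for degradation and frees the dimer to enter the nucleus, where it switches on, among others, the genes of its own inhibitors. LTα1β2 is a membrane-type ligand of the TNF superfamily, and its receptor on stromal cells can signal through canonical NF-κB and through the slower non-canonical branch.

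The libraries held between 11355974 (LTα1β2 48 h) and 15995777 reads (control 24 h), as recovered from the steps between the CPM values (CPM, counts per 1000000). The LTα1β2 48 h library stood apart: its log2(CPM + 1) values correlated with those of the other libraries at Pearson's r from 0.9739 to 0.9819, against 0.9907 to 0.9953 among the other 3, across genes, which are not independent replicates. Its reads also came from shorter transcripts, with a read-weighted median transcript length of 2847 bases against 3320 to 3403. The median log2 fold at 48 h was 0.36 in the tenth of genes with the shortest transcripts and -0.34 in that with the longest, against 0.04 and 0.02 at 24 h. For the 9 genes, log2 folds at 48 h are therefore given below with this length trend removed as well; other values at 48 h are as deposited. Of 12 osteoblast lineage markers 10 were listed, and Alpl and Ibsp were not among them. Their summed level was 37180 and 36430 CPM in the controls at 24 h and 48 h and 26680 and 22680 CPM in the treated libraries. Most of this sum was Col1a1 and Col1a2, at 15680 and 16410 CPM in control at 24 h. Sp7, a transcription factor gene of the osteoblast lineage, was at 35.1 and 30.9 CPM in the controls and 12.8 and 7.92 CPM in the treated libraries. The listed markers did not all go this way. Spp1 was at 1234 and 1525 CPM in the controls and 1430 and 2210 CPM in the treated libraries. Phex was at 1.94 and 1.60 CPM against 2.60 and 2.29 CPM. Of 7 fibroblast and mesenchymal markers 5 were listed, with sums of 6321 and 6912 CPM in the controls and 5163 and 5209 CPM in the treated libraries. Pdgfra among them was higher with treatment, at 115.1 against 151.6 CPM at 24 h and 107.3 against 109.2 CPM at 48 h. Of 8 leukocyte markers 3 were listed, at 57.4 to 85.9 CPM, nearly all of it Lyz2, while 0 of 4 endothelial and 0 of 4 epithelial markers were listed. In bulk RNA, fewer cells that express a gene and less RNA per cell cannot be told apart.

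Promoter sequences are shown first, because genes of this pathway are known as targets of NF-κB itself. RefSeq promoters (GRCm38.p6, from 250 bases before to 50 after each start site) were found for 7 of the 9 genes, with 11 start sites in all. Nfkb1 and Ikbkb did not match. Each promoter was searched on both strands for the 10-base κB consensus, the DNA element that NF-κB dimers bind. Of all 32851 promoters of this length there, 4.51% held a match. Those of the 4 genes with the largest treatment differences are printed, with that of Rela for comparison. Each is read 5′ to 3′ along the gene's strand, with bases that match the consensus in capitals.
Nfkbia (chr12:55492598-55492897, minus strand): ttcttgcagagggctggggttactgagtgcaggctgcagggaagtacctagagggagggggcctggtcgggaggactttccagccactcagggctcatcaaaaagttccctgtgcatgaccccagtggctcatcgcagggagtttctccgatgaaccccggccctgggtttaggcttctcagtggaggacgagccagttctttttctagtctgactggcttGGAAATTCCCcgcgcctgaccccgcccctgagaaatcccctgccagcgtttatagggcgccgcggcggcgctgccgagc
Nfkbie (chr17:45555450-45555749, plus strand): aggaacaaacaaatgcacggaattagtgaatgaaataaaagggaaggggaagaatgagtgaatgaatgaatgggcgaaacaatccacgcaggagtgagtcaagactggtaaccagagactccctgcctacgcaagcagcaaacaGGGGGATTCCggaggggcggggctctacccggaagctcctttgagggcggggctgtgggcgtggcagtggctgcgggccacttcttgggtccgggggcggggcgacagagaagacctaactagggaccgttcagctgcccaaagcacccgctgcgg
Tnfaip3 (chr10:19015361-19015660, minus strand): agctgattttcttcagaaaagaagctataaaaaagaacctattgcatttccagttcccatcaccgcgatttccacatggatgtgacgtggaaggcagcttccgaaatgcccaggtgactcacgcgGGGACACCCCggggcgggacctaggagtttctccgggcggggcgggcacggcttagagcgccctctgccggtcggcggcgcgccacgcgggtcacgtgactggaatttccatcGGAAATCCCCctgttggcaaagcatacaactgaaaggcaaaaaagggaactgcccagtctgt
Tnip1 (chr11:54962891-54963190, minus strand): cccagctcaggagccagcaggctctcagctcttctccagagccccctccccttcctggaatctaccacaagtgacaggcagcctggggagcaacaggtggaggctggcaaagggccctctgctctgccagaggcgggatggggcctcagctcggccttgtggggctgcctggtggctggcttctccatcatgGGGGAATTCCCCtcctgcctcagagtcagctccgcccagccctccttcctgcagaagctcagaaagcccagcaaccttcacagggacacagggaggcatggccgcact
Rela (chr19:5637291-5637590, plus strand): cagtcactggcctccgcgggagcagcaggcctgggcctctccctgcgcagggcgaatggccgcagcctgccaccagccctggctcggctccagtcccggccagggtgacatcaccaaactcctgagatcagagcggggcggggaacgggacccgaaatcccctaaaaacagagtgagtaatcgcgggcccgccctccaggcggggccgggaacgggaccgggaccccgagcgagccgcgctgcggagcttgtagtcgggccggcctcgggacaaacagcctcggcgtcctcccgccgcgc

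The match in Nfkbia lay 29 to 20 bases before the start and read GGGAATTTCC on the opposite strand. Nfkbie held 1 match, GGGGGATTCC, 106 to 97 bases before its start. Tnfaip3 held 2 at the start shown, 125 to 116 and 12 to 3 bases upstream, and 0 at its second RefSeq start. In Tnip1, 3 overlapping matches covered 58 to 47 bases before the start. Rela, Nfkbib and the 4 starts of Ikbkg held 0, which says only that these letters are not in these windows.

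**Figure D1:**
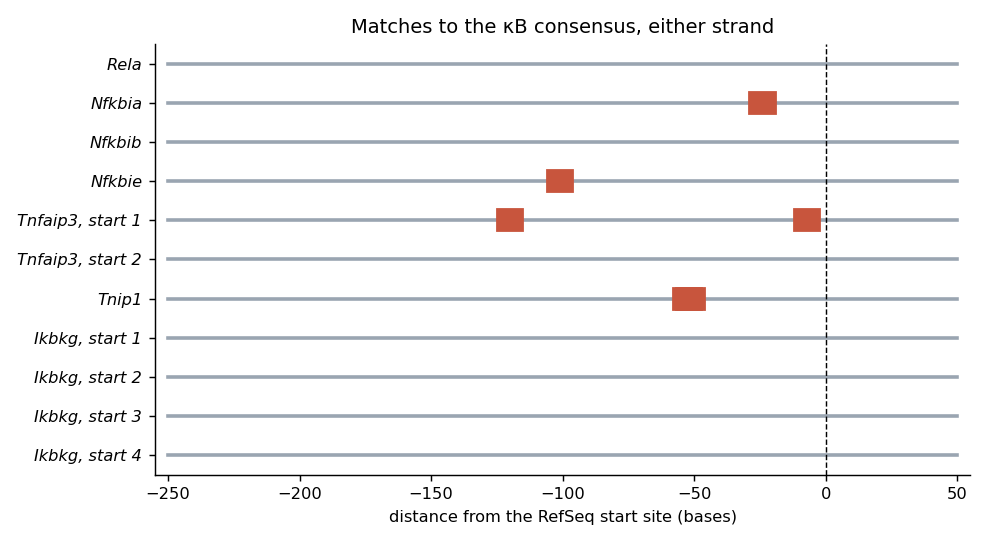
Position of matches to the κB consensus (filled boxes) on either strand in the 11 RefSeq promoters of the 7 matched genes; the horizontal axis is the distance from the start site in bases and each grey line is 1 promoter. Matches lie in Nfkbia, Nfkbie, the Tnfaip3 start shown in the text and Tnip1, and the other 7 promoters hold 0.

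Whether the pathway's own genes differed with LTα1β2 was read at each time and over both. The inhibitor genes Nfkbia and Nfkbie and the feedback genes Tnfaip3 and Tnip1 rose, while the subunit and kinase genes and Nfkbib did not pass the test. In numbers, 4 of 9 genes rose and 0 fell in an additive model of time and treatment (limma, adjusted p under 0.05 over all genes), where 2.92% of all 12160 genes rose and 2.27% fell. Of the 9, 0 were lower at an unadjusted p under 0.05 or in limma voom, which called 2.13% of all genes lower. An unadjusted p under 0.05 in either direction was reached by 1977 of the 12160 genes. In this model the pairs at 24 h and 48 h serve as repeats, which leaves 1 residual degree of freedom. The summed osteoblast and fibroblast markers were lower in both treated libraries, as given above, and their part in these differences was not tested. The p-values of the model rest on how far the 24 h and 48 h folds differ, shared over genes of like level. Separate cultures are not stated, and the spread between cultures is not measured by these p-values. The median log2 fold of the 9 genes was 0.27 at 24 h and 0.48 at 48 h, against 0.02 and -0.09 over all genes tested. With the length trend removed the median at 48 h was 0.55, against -0.01 over all genes. For 7 of the 9 genes both treated libraries lay above both controls, which held for 20.8% of all genes, and for 0 of 9 below (21.3%). Rela and Ikbkb were the exceptions.

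By size, treated cells were above control for 9 of 9 genes at 24 h (54.9% of all genes) and for 8 of 9 at 48 h (40.7%). At 24 h, 3 of 9 genes were at least 2-fold higher (0.666% of all genes), and at 48 h 2 of 9 (2.65%). Nfkbia and Nfkbie were the 2 of 9 that passed at both times (0.329% of all genes), and Tnfaip3 was the third at 24 h. A ratio of 1.5 was reached by 4 of 9 genes at 24 h (2.63%) and by 4 of 9 at 48 h (9.05%). Of the 9 genes, 0 were at least 2-fold lower at either time (0.551% and 1.63% of all genes). The 95% counting interval of the ratio lay above 1 for 7 of 9 genes at 24 h and for 7 of 9 at 48 h, against 20.3% and 21.6% of all genes, and below 1 for 0 of 9, against 14.5% and 34.2%.

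**Figure D2:**
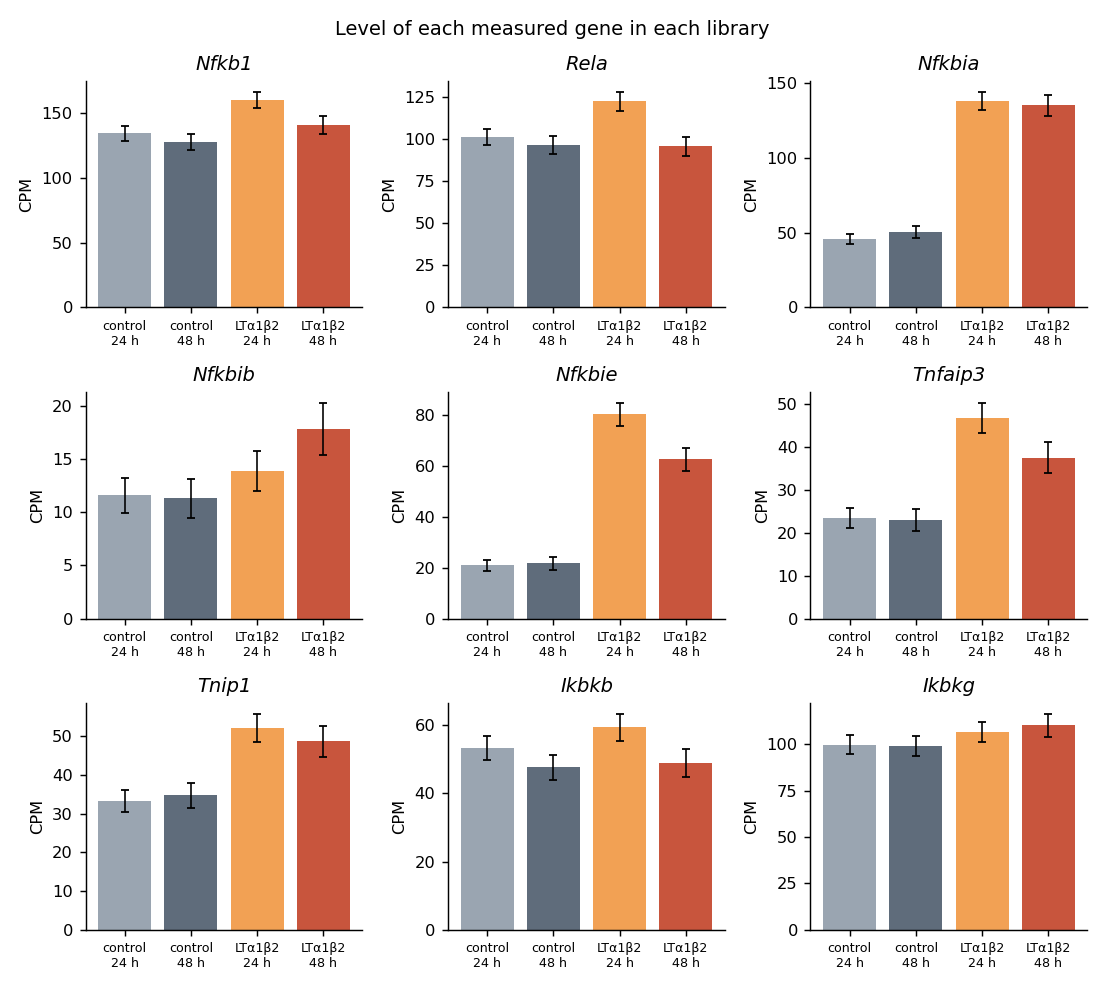
Level of the 9 measured genes in each library, in CPM; bars are single libraries and whiskers show the 95% range of counting error (normal approximation to the Poisson). Nfkbia, Nfkbie, Tnfaip3 and Tnip1 stand higher in both treated libraries, while Rela is highest in the treated 24 h library and Ikbkb is at 47.6 and 48.9 CPM in the 48 h libraries.

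The subunit genes had ratios of treated to control between 0.994 and 1.21. Nfkb1 (chromosome 3, 135584655 to 135691547, minus strand; these and the following gene positions are those of GENCODE M21 on GRCm38, which may not be the authors' build) encodes p105, the precursor of p50, which itself has an IκB-like part. Control and treated cells held 134 and 160 CPM of it at 24 h, and 128 and 141 CPM at 48 h. Both treated libraries were above both controls, by 1.19-fold (24 h; 95% counting interval 1.12 to 1.26) and 1.10-fold (48 h; 1.03 to 1.18). Counting intervals cover counting error only, not the difference between cultures. The limma log2 fold was 0.19 ± 0.17 (SE), with an adjusted p of 0.651.

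Rela (chromosome 19, 5637483 to 5648130, plus strand) encodes the subunit that carries the transactivation domain. Its level in control and treated cells was 101 and 122 CPM at 24 h, then 96.1 and 95.5 CPM at 48 h. Only the treated 24 h library was high, 1.21-fold above its control (1.13 to 1.29), and the 48 h ratio was 0.994 (0.916 to 1.08). With the length trend removed the log2 folds were 0.26 and 0.04. Over both times Rela did not pass (log2 fold 0.13 ± 0.17 SE, adjusted p = 0.793, limma).

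Among the IκB genes, the treatment difference was largest in Nfkbia and Nfkbie, the ones that passed the test. Nfkbia (chromosome 12, 55489410 to 55492647, minus strand) encodes IκBα, the fast-turnover inhibitor that ends most canonical responses. The controls were at 45.7 CPM (24 h) and 50.5 CPM (48 h), and the treated libraries at 138 and 135 CPM. The treated libraries lay close together and far above the controls, with ratios of 3.03 (2.78 to 3.3) for 24 h and 2.67 (2.44 to 2.93) for 48 h. Nfkbia rose, with a limma log2 fold of 1.49 ± 0.17 (SE) and an adjusted p of 1.24e-15. By log2 fold it ranked 9 of 12160 genes at 24 h and 48 at 48 h.

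Nfkbie (chromosome 17, 45555703 to 45563169, plus strand) encodes IκBε, an inhibitor that binds RelA and c-Rel dimers. At 24 h it was at 20.9 CPM without and 80.1 CPM with LTα1β2, and at 48 h at 21.7 and 62.5 CPM. Both treated libraries were well above the controls and the 24 h value was the higher, at 3.84-fold (3.40 to 4.35) against 2.88-fold (2.51 to 3.32). It rose with the largest fold of the 9 genes, a limma log2 fold of 1.69 ± 0.17 (SE) with an adjusted p of 2.87e-19, and ranked 7 at 24 h and 40 at 48 h.

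Nfkbib (chromosome 7, 28758251 to 28767512, minus strand) encodes IκBβ, an inhibitor with slower turnover. It was the lowest of the 9 genes in reads, at 11.6 and 11.3 CPM in the controls and 13.9 and 17.8 CPM in the treated libraries of 24 h and 48 h. Only the treated 48 h library stood clear of the others, 1.57-fold above its control (1.27 to 1.96), and the 24 h ratio of 1.20 had an interval that includes 1 (0.98 to 1.47). It did not pass (log2 fold 0.43 ± 0.19 SE, adjusted p = 0.204, limma). Its annotated exons share 42 of 2169 bases with Sirt2 and 314 with Ccer2 on the opposite strand, and whether the counting used the strand is not given in the sources used here.

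**Figure D3:**
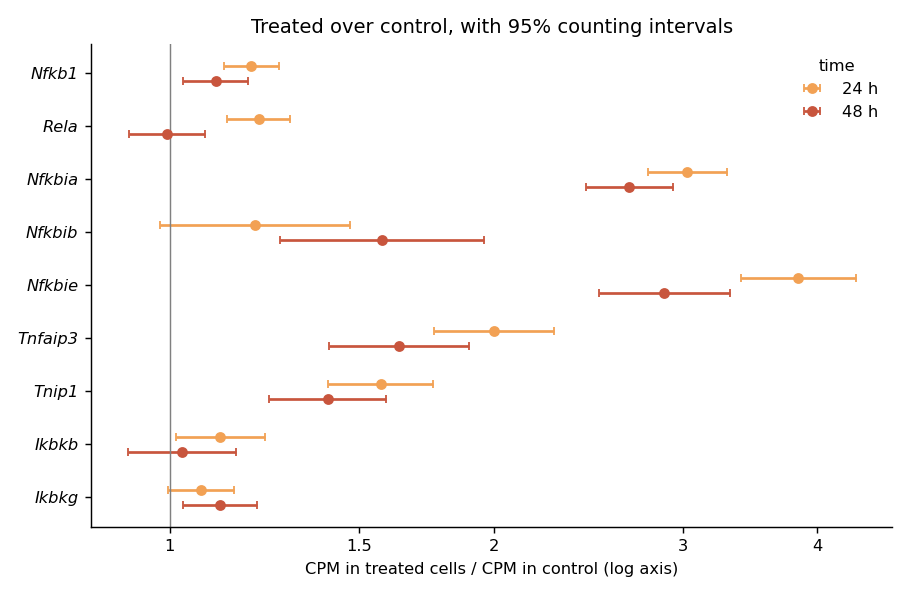
Ratio of CPM in treated cells to CPM in control cells at 24 h and 48 h for the 9 genes, on a log axis; points are ratios of single libraries and bars are exact 95% counting intervals. Nfkbie and Nfkbia lie between 2.67 and 3.84, Tnfaip3 and Tnip1 between 1.40 and 2.0, and the subunit and kinase genes between 0.994 and 1.21.

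The feedback genes that act on ubiquitin chains rose too, with folds below those of Nfkbia and Nfkbie. Tnfaip3 (chromosome 10, 19000910 to 19015657, minus strand) encodes A20, a ubiquitin-editing enzyme that shuts down signalling upstream of the IκB kinase. The controls were at 23.4 and 23.0 CPM, the treated libraries at 46.8 CPM (24 h) and 37.5 CPM (48 h). Control libraries were nearly equal and both treated ones higher, by 2.0-fold (1.76 to 2.27) and 1.63-fold (1.41 to 1.90). The limma log2 fold was 0.83 ± 0.18 (SE), adjusted p = 0.000259. At 24 h the ratio was at the 2-fold line, and on the log2(CPM + 1) scale its log2 fold was 0.97.

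Tnip1 (chromosome 11, 54910785 to 54962917, minus strand) encodes ABIN1, a ubiquitin-binding partner of A20. Its controls were at 33.2 and 34.7 CPM and its treated libraries at 52.1 CPM (24 h) and 48.7 CPM (48 h). The groups did not overlap, and the treated libraries were 1.57-fold (1.40 to 1.76) and 1.40-fold higher (1.24 to 1.59). The limma log2 fold was 0.56 ± 0.17 (SE), adjusted p = 0.0313, the nearest to the threshold of the 4 genes that rose.

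The kinase genes had mean log2 folds of 0.09 (Ikbkb) and 0.12 (Ikbkg). Ikbkb (chromosome 8, 22659212 to 22706589, minus strand) encodes IKKβ, the catalytic subunit that phosphorylates IκB. Control and treated libraries overlapped, at 53.3 against 59.4 CPM for 24 h and 47.6 against 48.9 CPM for 48 h. Ikbkg (X chromosome, 74393290 to 74453854, plus strand) encodes NEMO, the regulatory subunit. Its controls were at 99.96 and 99.0 CPM and its treated libraries at 107 and 110 CPM, ratios of 1.07 (0.997 to 1.15) and 1.11 (1.03 to 1.20). Neither passed (adjusted p = 0.863 and 0.808, limma). Annotated exons of Ikbkg share 418 of 8110 bases with G6pdx on the other strand.

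**Figure D4:**
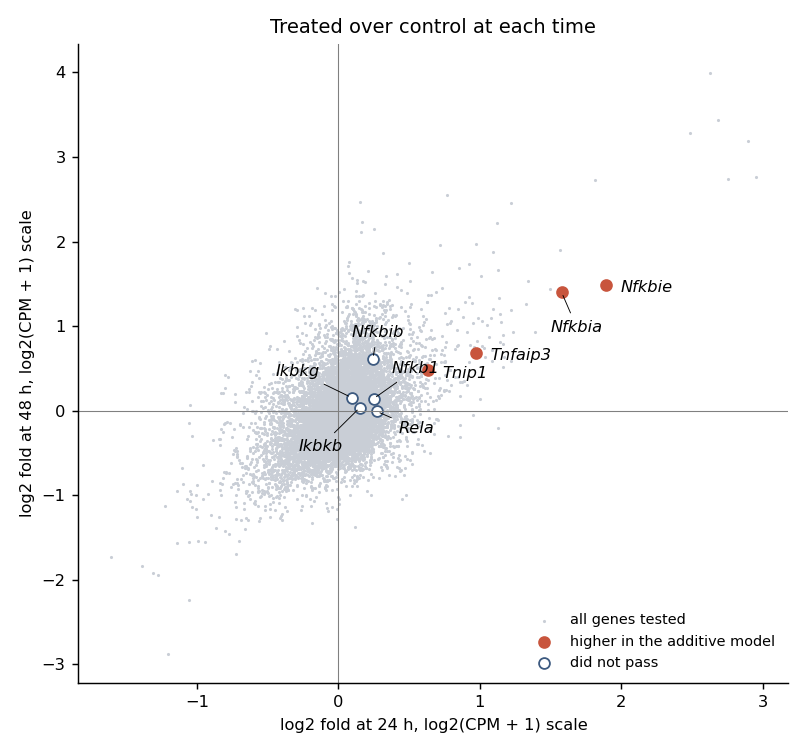
Log2 fold of treated over control at 24 h (horizontal) and 48 h (vertical) on the log2(CPM + 1) scale for the 12160 genes tested (grey), with the 9 genes marked; filled points rose in the additive model. Nfkbia and Nfkbie lie far from the bulk of genes in both directions of the plot, and the 5 genes that did not pass lie within it.

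The calls for Nfkbia and Nfkbie and those for Tnfaip3 and Tnip1 differed in how they held. The additive model estimated infinite prior degrees of freedom, so genes of like level shared 1 spread and a gene's own did not count. With 10 prior degrees of freedom, 2 of the 9 genes rose (0.321% of all genes), Nfkbia and Nfkbie, and the adjusted p was 0.0765 for Tnfaip3 and 0.214 for Tnip1 (limma). The same 2 genes alone rose with no time term, where 0.164% of all genes did. Leaving out a library makes 1 arm a single library, which is then assumed to vary like the 2 libraries of the other arm, taken at different times. Such fits say little about the arm with 1 library. Without the 24 h or the 48 h control, Nfkbia and Nfkbie alone rose (0.189% and 0.132% of all genes). Without the LTα1β2 48 h library 6 of 9 passed (3.31% of all genes), with Nfkb1 (log2 fold 0.29) and Rela (0.31) beside the 4. Without the LTα1β2 24 h library 5 of 9 passed, the fifth being Nfkbib, in a fit that called 15.5% of all genes higher. With the length trend removed, the 48 h log2 folds were 1.28 for Nfkbia, 1.505 for Nfkbie, 0.86 for Tnfaip3, 0.55 for Tnip1 and 0.59 for Nfkbib, against 1.40, 1.49, 0.68, 0.48 and 0.61 as deposited. For Nfkb1, Ikbkb and Ikbkg they were 0.30, 0.19 and 0.45, against 0.14, 0.04 and 0.15. The same 4 of 9 genes rose with the trend removed (4.47% of all genes).

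How the same genes stood at 48 h against 24 h was read in each treatment. The comparison in treated cells rests on the LTα1β2 48 h library. In control cells the ratios ran from 0.893 (Ikbkb) to 1.11 (Nfkbia), and the counting interval lay below 1 for 1 of 9 genes, Ikbkb (0.805 to 0.992; 15.3% of all genes), and above 1 for 0 of 9 (10.8%). In treated cells the interval lay below 1 for 5 of 9 genes (40.1% of all genes) and above 1 for 1, Nfkbib (18.6% of all genes). The 5 were Nfkb1, Rela, Nfkbie, Tnfaip3 and Ikbkb, with ratios from 0.780 (Nfkbie) to 0.881 (Nfkb1). Nfkbia was level in treated cells, at 0.977 (0.914 to 1.04). The 48 h fold over control divided by the 24 h fold was 0.751 for Nfkbie (0.625 to 0.903) and 0.816 for Tnfaip3 (0.672 to 0.990), and 0.883 for Nfkbia (0.780 to 0.9998). Such an interval lay below 1 for 4 of 9 genes, Rela included (30.2% of all genes), and above 1 for 0 of 9 (14.6%). These ratios are as deposited. With the length trend removed the log2 folds at 24 h and 48 h were 0.96 and 0.86 for Tnfaip3, against 0.97 and 0.68 as deposited. They were 1.88 and 1.505 for Nfkbie and 1.56 and 1.28 for Nfkbia. With 1 library per group the difference between times was not tested.

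Levels can be compared between genes only per transcript length, here CPM per kilobase of the longest GENCODE basic transcript. On this scale the order in control at 24 h was Rela (37.2), Nfkb1 (32.6), Nfkbia (29.0), Ikbkg (14.3), Ikbkb (13.4), Tnip1 (11.2), Nfkbie (8.58), Nfkbib (5.61) and Tnfaip3 (5.29). In treated cells at 24 h Nfkbia led at 87.7 CPM per kilobase, followed by Rela at 45.0, Nfkb1 at 38.8 and Nfkbie at 32.9. Neighbours in these orders have no replicate spread by which to separate them. Other transcript choices were not tried.

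The summed level of the 3 IκB genes moved past that of Nfkb1 and Rela. Nfkbia, Nfkbib and Nfkbie together were at 43.2 and 46.4 CPM per kilobase in control at 24 h and 48 h, and at 127 and 120 in treated cells. That was 2.95-fold and 2.58-fold higher with treatment. Nfkb1 and Rela together were at 69.8 and 66.4 CPM per kilobase in control and at 83.8 and 69.3 in treated cells. The ratio of IκB to subunit transcript was thus 0.618 and 0.70 in control and 1.52 and 1.73 in treated cells. Nfkbia made up 67.1% to 71.4% of the IκB sum in every library. The share of Nfkbie was 19.9% and 19.2% in control and 25.8% and 21.4% in treated cells, and that of Nfkbib 13.0% and 11.8% against 5.29% and 7.19%. These ratios are as deposited and depend on the transcript lengths used, and protein was not measured. They also depend on which genes are summed, and Nfkb2, Rel and Relb are not in the subunit sum. Nfkb2 was at 142.5 and 144.3 CPM in the controls and at 319.8 and 269.9 CPM in the treated libraries, not divided by length. Whether the IκB sum would also pass a subunit sum that includes Nfkb2, Rel and Relb was not tested.

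**Figure D5:**
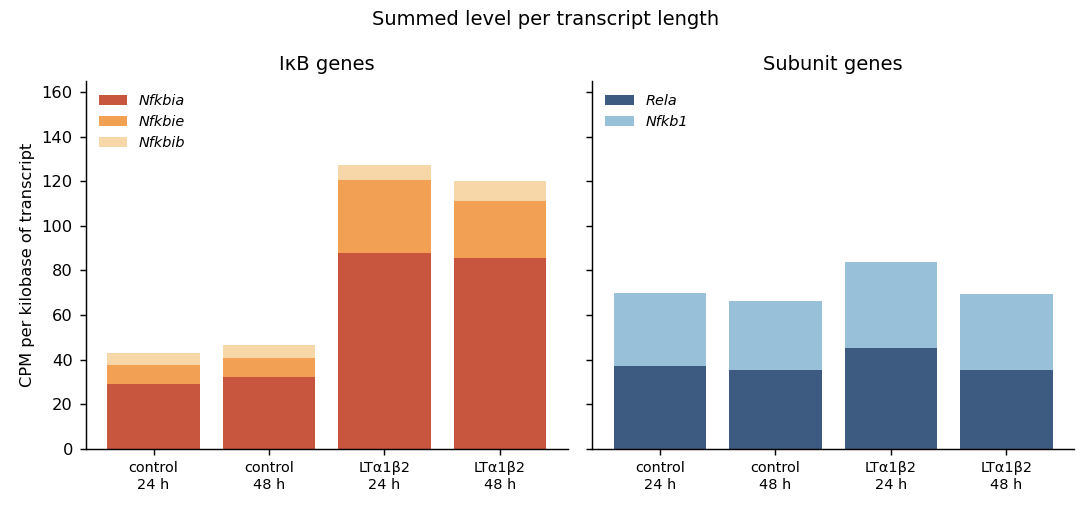
Summed CPM per kilobase of transcript of the IκB genes (left) and the subunit genes (right) in each library; stacked segments are genes and each bar is 1 library. The IκB sum is 43.2 and 46.4 in control and 127 and 120 in treated cells, while the sum of Nfkb1 and Rela stays between 66.4 and 83.8.

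The rest of the pathway was read from lists by role, against the same background of 2.92% higher and 2.27% lower. Of 6 tested genes of other NF-κB, Rel and IκB-like proteins 2 rose and 0 fell, both of the non-canonical branch. Nfkb2, which encodes p100, had 142 and 144 CPM in the controls and 320 and 270 CPM in the treated libraries. Relb, which encodes its partner, had 26.6 and 23.7 CPM against 41.3 and 37.5 CPM. Of 20 tested genes of the kinase complex and upstream signalling 1 rose and 0 fell. It was Map3k14, which encodes the kinase NIK of the non-canonical branch (30.9 to 52.1 CPM at 24 h, 19.6 to 32.9 CPM at 48 h). Chuk, which encodes IKKα, had log2 folds of 0.03 and -0.12 at 24 h and 48 h. Of 16 tested genes of ubiquitin editing and linear ubiquitin assembly 2 rose and 0 fell, Birc3 and Birc2, which encode the ubiquitin ligases cIAP2 and cIAP1. The ratios of Birc3 were 2.80 (2.32 to 3.39) for 24 h and 1.97 (1.63 to 2.39) for 48 h, and those of Birc2 1.88 (1.67 to 2.12) and 2.20 (1.92 to 2.53). In 9 tested genes of IκB degradation and in 13 that end nuclear NF-κB activity, 0 rose and 0 fell in limma and in limma voom. At an unadjusted limma p under 0.05, 1 gene was higher and 0 lower in each, where 1977 of all 12160 genes passed in either direction. Their medians were 0.03 and -0.01 for degradation and -0.03 and 0.03 for termination, at 24 h and 48 h. With no time term 0.164% of all genes rose, and the calls in the Rel, kinase and ubiquitin lists dropped to 1, 0 and 0. With 10 prior degrees of freedom (0.321% of all genes) they were 1, 0 and 2. With the length trend removed (4.47% of all genes) they were 2, 4 and 3.

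Genes known as NF-κB targets had the highest count. Of 35 tested of 46 listed, 21 rose and 0 fell, with median log2 folds of 0.54 at 24 h and 0.64 at 48 h. Like the other lists, this one was chosen with earlier results of these data known, so its count is not independent support. Birc3, Nfkb2 and Relb are counted here as well as in the lists above. The largest mean folds were those of Ccl5, Ccl2, C3, Ccl7 and Mmp9, with limma log2 folds of 3.31, 3.06, 3.04, 2.89 and 2.86. These are chemokine genes, the central complement gene and a gelatinase gene. Of the targets 14 did not pass, among them Sod2, the gene of a mitochondrial antioxidant enzyme (log2 folds 0.29 and 0.03), and Gadd45b, a stress-response gene (-0.08 and -0.05), both named after their values were seen. With 10 prior degrees of freedom 9 of the 35 rose (0.321% of all genes), and with no time term 7 (0.164% of all genes).

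The genes whose pattern over the 4 libraries was most like that of Nfkbia were sought among all tested genes, by the Euclidean distance of centred log2(CPM + 1) values. They were Rnf150 (distance 0.0702), Hmga1 (0.297), Nfkbie (0.308), Icam5 (0.337) and Nckap5 (0.345). For Nfkbie the nearest was Nfkbia (0.308), followed by Rnf150, Nckap5, Hmga1 and Dtx4 (0.617). Rnf150 had 8.0 and 8.78 CPM in the controls and 24.4 and 25.5 CPM in the treated libraries. Nckap5 was at 5.34 CPM or less in every library, so its place rests on few reads. With 4 libraries such likeness is mostly a like fold at both times.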

How the data were processed

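RNA from 4 samples of 3T3 cells was sequenced. Libraries were made from total RNA with a directional kit and sequenced as read pairs on a NovaSeq, per the labels' protocols. The authors deposited 1 table of CPM, 1 column per library, each summing to 1000000 over the listed genes. The submitters' processing notes name edgeR 3.30.0. An aligner, a read counter, a genome build and an annotation were not given in the sources used here.

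The members and lists were chosen with earlier results of these data known. GENCODE M21 supplied symbols and lengths (12205 of 12208 identifiers found, ignoring versions). The steps between low CPM values gave whole reads for 100% of values (within 0.01 of a read), the lowest being 9 to 12 reads, and ratios have exact conditional binomial 95% intervals (Clopper-Pearson, scipy 1.17.1). Genes averaging 1 CPM or more were tested on log2(CPM + 1) with limma 3.58.1 in R 4.3.3, in a model of time plus treatment. The model was run on simulated reads with the same fold at both times, a fixed spread and no length trend. These libraries differ from that setting, so the check does not vouch for the p-values given here. The test was two-sided with trended empirical Bayes, and p-values were adjusted by Benjamini-Hochberg, with a threshold of 0.05. Log2 folds are differences on that scale and understate the change of low genes. Single times have no test, only the 2-fold rule on the CPM ratio.

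All 9 measured members are named. Of each pathway list up to 5 genes past the test with the largest mean fold are named, and Chuk, Sod2 and Gadd45b are named outside that rule. Alternatives were pseudocounts, filters, rescaling, removal of the length trend (lowess per library), other priors, no time term, leaving out a library and, chosen after seeing the data, limma voom and infinite prior degrees of freedom after rescaling or length-trend removal. An edgeR fit and a search of protein sequences were planned and not run.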

Additional observations from a re-analysis of the deposited data

Results flagged for a closer look

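Rela was higher with treatment at 24 h and level with its control at 48 h. Its treated over control ratio was 1.21 at 24 h (counting interval 1.13 to 1.29) and 0.994 at 48 h (0.916 to 1.08), and the 48 h fold divided by the 24 h fold was 0.822 (0.740 to 0.914). The difference between the times was not tested, since each group was 1 library. The 48 h interval includes 1, and with the length trend removed both log2 folds were above 0, at 0.26 and 0.04.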

How the results depend on the processing

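Nfkbia and Nfkbie rose in all 16 other fits, with log2 folds from 1.42 to 1.56 and from 1.51 to 1.87 and adjusted p-values up to 0.00754 and 0.0105 (limma). Tnfaip3 rose in 12 of the 16 and Tnip1 in 10, with adjusted p-values up to 1.0. The count of genes that rose, 4, was 2 with no time term (0.164% of all genes) and 2 with 10 prior degrees of freedom (0.321%). It ran from 2 to 6 when 1 library was left out in fits with no time term, which have a single library in 1 arm and called 0.132% to 15.5% of all genes higher. It was 3 with median-of-ratios rescaling (0.781% of all genes) and 3 with no trend (2.89%). The adjusted p of Tnip1 in these fits was 0.0638 and 0.0557 (limma). The count of genes that fell was 0 in every fit. Without the LTα1β2 24 h library the log2 folds of Rela and Ikbkb turned to -0.0446 and -0.0437, and Nfkbib passed (0.60, adjusted p = 0.00571) in the fit that called 15.5% of all genes higher and 25.2% lower. Nfkb1 and Ikbkg, at 0.27 each, rose with the length trend removed at infinite prior degrees of freedom (8.23% of all genes). At a threshold of 1.5-fold, 4 genes were higher at 24 h and 4 at 48 h (2.63% and 9.05% of all genes), against 3 and 2 at 2-fold. Of the known targets 6 to 25 rose and 0 to 2 fell over the alternatives, and of each other pathway list 0 to 5 rose and 0 to 2 fell, where 0.132% to 15.5% of all genes rose. The cause of these differences was not tested. Nfkbib, with 148 to 208 reads per library, had the widest counting intervals. An edgeR fit was not run.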

Other observations

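Some genes of the wider pathway that did not pass the test had values of interest, chosen after they were seen. The adaptor genes Traf2 and Traf3, whose products hold NIK at low level in resting cells, had log2 folds of 0.39 and 0.61 at 24 h and 0.51 and 0.27 at 48 h (adjusted p = 0.113 and 0.118, limma). Rel, which encodes c-Rel, had log2 folds of 0.07 and -0.69 (adjusted p = 0.381, limma). The lower value rests on the LTα1β2 48 h library as deposited, in which folds ran lower for longer transcripts. Whether that trend bears on Rel was not tested. Cyld, which encodes a deubiquitinase of the pathway, had log2 folds of 0.39 and 0.22 (adjusted p = 0.377, limma).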
